A study of Mus musculus with 3 samples.

Results

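The Pim kinases and the Myc family are represented on the array by 8 genes, Pim1, Pim2, Pim3, Myc, Mycn, Mycl, Max and Mxd1. Every non-control probe that carries the name of 1 of these genes or an older alias (Mycl1 for Mycl, Mad for Mxd1) was taken, which gave 14 of the 41174 probes on the array, and 8 of the 27962 names these probes carry. Expression was measured in mast cell progenitors (MCps), which are immature mast cells, from 3 WT and 3 p85α-/- mice. In the p85α-/- mice Pik3r1, the gene of the p85α regulatory subunit of class IA PI3 kinase, is disrupted. Low density mononuclear cells of both genotypes were kept for 7 days in IL-3 at 10 ng/mL. Cells with both KIT and the IgE receptor on their surface were then sorted and given SCF, the KIT ligand, at 100 ng/mL for 48 hours. No unstimulated culture was on the arrays, so every value belongs to SCF-treated cells.

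Pim kinases are serine/threonine kinases that are active as soon as they are translated, so that their output is largely set by the amount of mRNA and protein. In blood cells their genes are switched on by cytokine receptors through STAT5, and they promote survival and cooperate with Myc in lymphoid tumours. Myc, Mycn and Mycl are transcription factors that pair with Max to bind E-boxes and drive growth genes, whereas Mxd1 pairs with the same partner and represses such genes during differentiation.

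Each of the 3 arrays was hybridized with amplified cDNA of 1 WT culture (Cy3) and 1 p85α-/- culture (Cy5), and the dyes were never swapped, so dye and genotype cannot be told apart. The median spot signal was between 71.5 and 141.2 in the WT channels and between 206.6 and 517.3 in the p85α-/- channels, the highest being that of p85α-/- on replicate 2. All levels below are normalized log2 intensities, and all ratios are log2 of p85α-/- over WT within an array. Because intensity depends on the probe, levels are compared between cultures and not between probes. Of the 14 probes, 12 were well above background in all 6 channels. Of 10 mast cell markers (Kit, Fcer1a, Cpa3 and others), 9 or 10 were well above background in every channel. So were 69.4% to 93.8% of all non-control spots per channel. Ms4a2, the β chain of the IgE receptor, was not in WT of replicates 1 and 2. Most markers of other cells, given below, were also above background, so presence by this flag does not tell the cell type. Pik3r1 itself gave no single direction. Its 4 probes had mean log2 ratios of 0.59, −0.58, 0.32 and −0.04. At the second of them the p85α-/- levels of 8.75, 8.51 and 8.62 all lay below the WT levels of 9.79, 8.82 and 8.99. That order was found for 5.94% of all probes, and the adjusted p of the probe was 0.908 by limma. The paper reports loss of p85α protein by western blot in mast cells grown from p85α-/- mice, without showing the blot. It also describes the subunits p55α and p50α as still present in such cells. Which transcripts of Pik3r1 the 4 probes match was not tested. Directions are those of the labelled cultures.

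The promoters of the Pim genes are shown because their mRNA level sets much of the activity of these kinases. The 100 bases before the RefSeq transcription start (GRCm38.p6, plus strand in each case) read as follows, with GC boxes (GGGCGG, either strand) and CCAAT boxes (CCAAT, either strand) in capitals.
Pim1 (chr17:29490685-29490784): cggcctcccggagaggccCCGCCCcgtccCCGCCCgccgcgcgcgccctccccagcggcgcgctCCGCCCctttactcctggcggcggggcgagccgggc
Pim2 (chrX:7878206-7878305): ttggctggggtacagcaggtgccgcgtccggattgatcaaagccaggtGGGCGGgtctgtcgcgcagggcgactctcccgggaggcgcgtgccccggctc
Pim3 (chr15:88862094-88862193): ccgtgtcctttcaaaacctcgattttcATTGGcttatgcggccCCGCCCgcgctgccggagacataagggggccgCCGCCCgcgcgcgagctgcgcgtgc
RefSeq starts of 7 of the genes, all but Myc, gave 8 windows of 300 bases (250 before to 50 after a start), with 2 for Pim1. No window of Myc was available, so the counts below do not cover it. GC boxes stood in 6 of them, at least 1 for each Pim gene, against 35.7% of 32851 windows over all RefSeq genes. The palindromic E-box that Myc and Max recognise (CACGTG) was found in 2 of the 8 member windows and in 7.15% of all windows. These 30-base stretches hold it, in capitals: the first spans the start of Max on the minus strand, and in the second the E-box begins 58 bases before the downstream start of Pim1 on the plus strand.
Max (chr12:76962234-76962263): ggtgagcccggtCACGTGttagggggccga
Pim1, downstream start (chr17:29493015-29493044): gtaaacaggaatCACGTGgtctgaaaccag
A STAT site (TTCNNNGAA, which equals its own reverse complement) stood in 8.3% of all windows and in 0 of the member windows. Such matches describe the letters of these windows and nothing more.

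Across the family no probe passed the test of a difference between genotypes. With limma's moderated test and Benjamini-Hochberg adjustment over all probes, adjusted p values of the 14 probes were between 0.908 and 0.996, and 0 of 14 passed 0.05, as did 0% of the 41157 that were measured on all 3 arrays. Before adjustment, 0 of 14 had p under 0.05 by limma or by the methods' t-test in either form, and 0 of 14 were past 1.5-fold with p under 0.05, where 4.44% of all probes were. Mean log2 ratios lay between −0.32 and 1.87, 7 below 0 and 7 above it, where 55.2% of all probes were below 0. At the brightest probe of each gene, 5 genes had a mean below 0 (Pim3, Myc, Mycn, Mycl and Mxd1) and 3 above it (Pim1, Pim2 and Max), but with each array centred on its median in place of quantile normalization only 1 was below 0, and in that setting the median of all probes moved from −0.05 to 0.09. The SD over arrays had a median of 0.93 for the 14 probes and 0.67 for all probes, and the mean was larger than its SD at 2 of the 14, the brightest probes of Pim1 and Pim2. In 0 of 14 were the 3 p85α-/- levels all above or all below the 3 WT levels, an arrangement found for 4.54% (above) and 5.94% (below) of all probes.

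**Figure D1:**
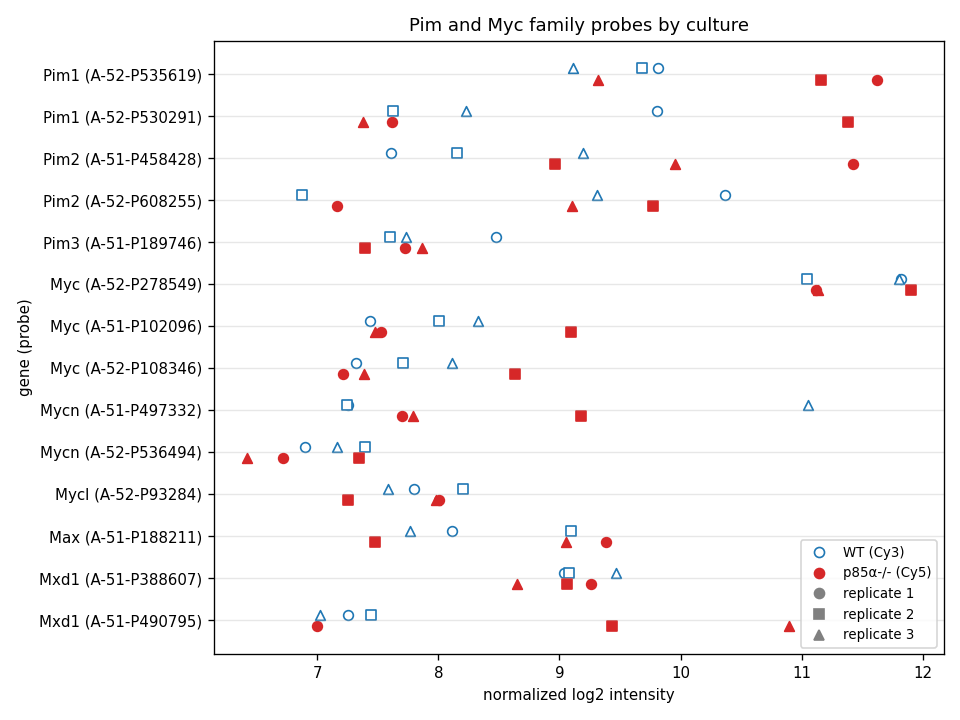
Normalized log2 intensity (x axis) of each of the 14 probes (y axis) in every culture, with open blue symbols for WT and filled red symbols for p85α-/-, and 1 symbol shape per replicate. WT and p85α-/- symbols overlap on every line, and those of Pim3 lie between 7.40 and 8.47.

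Of the 3 kinases, Pim3 had the smallest SD of the log2 ratio, 0.45, with the normalization used here. It has 1 probe (chromosome 15, positions 88947531 to 88947590 in the coordinates printed with the array, whose genome build is not given in the sources used here). Its level was 8.47, 7.60 and 7.73 in WT of replicates 1 to 3 and 7.72, 7.40 and 7.86 in p85α-/-. Only the WT culture of replicate 1 stood above the rest, and the groups overlapped. The log2 ratios were −0.75, −0.20 and 0.13, and the 95% interval of their mean ran from −1.12 to 0.57 (adjusted p = 0.912 by limma). Without replicate 1 the mean was −0.03, so the lower mean rests largely on that array. Before background correction the WT signals of this spot were 138, 65 and 133, where WT channel medians ran from 71.5 to 141.2. The scanner's own log ratios of Pim3, given below, lay further apart.

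The authors' deposited table of log10 ratios gives Pim3 other values than the scanner files do. Converted to log2, the Pim3 entry of the table is −1.45, −2.13 and −2.22 for replicates 1 to 3. The scanner's own log ratio of the Pim3 spot is −1.45 on replicate 1, but −0.45 and 0.28 on replicates 2 and 3. The table's pair of values for replicates 2 and 3 is that of a single other probe in the scanner files, which the array names Klf17, a zinc finger gene (chosen after its values were seen). Such rows, in which both values belong to 1 other probe, number 8876 of the 40929 with 1 spot per array (tolerance 1.5e-05 on the log10 scale). The mean for Pim3 is −1.93 from the table and −0.54 from the scanner's log ratios. Every member probe was checked in the same way. For all 14 the table differed from the scanner on replicates 2 and 3. Besides Pim3, the pair of values was traced to 1 other probe for the AK047301 probe of Pim1 and the dimmer Mycn probe, and for the remaining 11 no single probe held both values. The entries of the 10-spot Myc probe were 2.67 and 5.67 on replicates 2 and 3 where the scanner's ratios averaged 1.37 and −1.62. The table was therefore used for no value of the family.

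Pim1, the founding member of the kinase family and a STAT5 target in many blood cells, was measured by 2 probes that did not give the same picture. The brighter one, named after the cDNA clone AK047301, had 9.81, 9.68 and 9.11 in WT and 11.62, 11.16 and 9.32 in p85α-/-. Its p85α-/- level was the higher one on every array, by 1.81, 1.48 and 0.20, but on replicate 3 it stayed within the WT range. A ratio above 0 on all 3 arrays was found for 12.5% of all probes. The mean of 1.16 ± 0.85 (SD, n = 3) had an unadjusted p of 0.0559 and an adjusted p of 0.908 by limma. This probe is placed on the minus strand of chromosome 17 (27683630 to 27683689) by the order of its coordinates, opposite to Pim1, and the same is true of 1.30% of 19069 probes matched to a RefSeq gene and of 4.83% of those named by an AK accession. Whether it reports Pim1 or a transcript antisense to it was not tested. The probe on the strand of Pim1, 2113 bases away, had 9.81, 7.62 and 8.23 in WT and 7.61, 11.38 and 7.38 in p85α-/-. There the p85α-/- culture was far above WT on replicate 2 and below it on the others, with log2 ratios of −2.19, 3.76 and −0.85 and a mean of 0.24 ± 3.12. With loess within arrays and quantile normalization of average intensities between arrays, the AK047301 probe had an unadjusted p of 0.0404 by limma. The same probe had 0.0316 with median centring and 0.0212 without replicate 3. It did not pass under the remaining alternatives, where p for this probe reached 0.208 (without replicate 1), and the mean over both Pim1 probes was 0.70.

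Pim2, the kinase with the most lymphoid expression, also split by probe. The brighter probe had 7.61, 8.16 and 9.19 in WT and 11.42, 8.97 and 9.95 in p85α-/-. The p85α-/- culture was higher on every array, most of all on replicate 1, while the levels of replicate 2 in p85α-/- and replicate 3 in WT overlapped. Its log2 ratios of 3.81, 0.81 and 0.76 had a mean of 1.79 ± 1.75 (adjusted p = 0.908 by limma), and without replicate 1 the mean was 0.78. With median centring the mean was 2.48 with an unadjusted p of 0.0284. The mean over both Pim2 probes, with quantile normalization, was 0.81. The other probe, 536 bases upstream in the same transcript, had 10.37, 6.88 and 9.31 in WT and 7.16, 9.77 and 9.10 in p85α-/-. Replicates 1 and 2 had opposite signs, −3.20 and 2.90, and its mean was −0.17 ± 3.05. The WT channel of replicate 2 was not well above background at this probe, so the ratio of 2.90 is taken against a dim spot. Both Pim2 probes carry the same RefSeq accession.

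**Figure D2:**
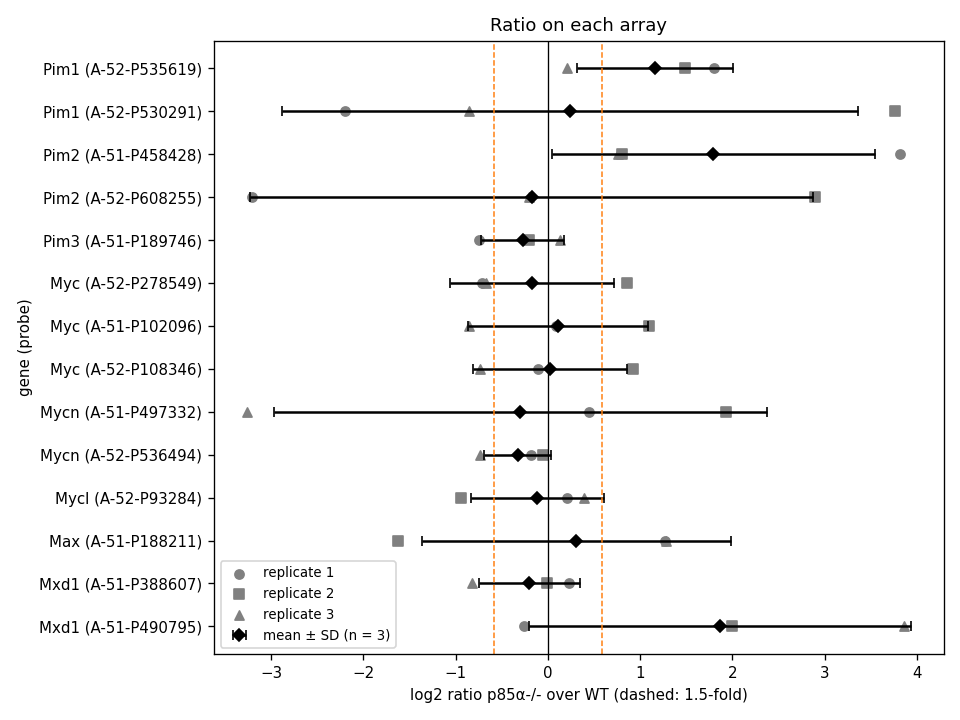
Log2 ratio of p85α-/- over WT (x axis) for each of the 14 probes (y axis), with a grey symbol per array, a black diamond for the mean and a bar for the SD (n = 3), and dashed lines at 1.5-fold. The bars of Pim1 and Pim2 at their second probes span about 6 log2 units in all, those of Pim3 less than 1.

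Myc was covered by the most probes of the family, and the arrays differed in its direction. The brightest of its 3 probes had 11.82, 11.04 and 11.80 in WT and 11.11, 11.90 and 11.14 in p85α-/-. Myc was thus lower in p85α-/- on replicates 1 and 3 and higher on replicate 2, with nearly equal sizes of −0.71, 0.86 and −0.67. The mean of −0.17 ± 0.89 was far smaller than this spread (adjusted p = 0.966 by limma, 95% interval −1.43 to 1.09), and it was 0.10 without replicate 1, −0.69 without replicate 2 and 0.08 without replicate 3. With median centring it turned to 0.92 with an unadjusted p of 0.0467 and an adjusted p of 0.648 by limma. A further Myc probe was printed at 10 spots per array. Its usable spots gave 0.09 ± 0.08 (SD, 9 spots) on replicate 1, 1.09 ± 0.21 (9 spots) on replicate 2 and −0.85 ± 0.10 (10 spots) on replicate 3. The pooled SD over spots was 0.14 and the SD over arrays, each with its own pair of cultures, was 0.97, a quotient of 6.98 against a median of 7.82 for the 245 probes printed 10 times. The spots do not measure effects that are shared by a whole array. The third Myc probe had log2 ratios of −0.10, 0.92 and −0.73. All Myc probes were above 0 on replicate 2 and below 0 on replicate 3, and on replicate 1 they ran from −0.71 to 0.09.

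**Figure D3:**
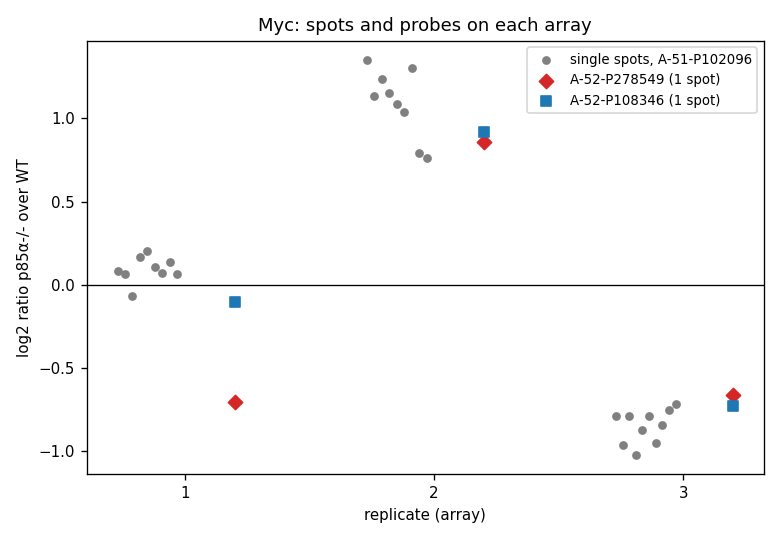
Log2 ratio of p85α-/- over WT (y axis) for Myc on each array (x axis), with grey points for single spots of the probe printed 10 times, and a red diamond and a blue square for the probes printed once. Spots of 1 array lie close together, while the arrays are centred at 0.09, 1.09 and −0.85.

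Agreement among the Myc probes was closer than for the other members with more than 1 probe. The median absolute gap in log2 ratio between a pair of Myc probes, over arrays, was between 0.07 and 0.24. It was 2.28 for Pim1, 2.09 for Pim2, 1.98 for Mycn and 2.00 for Mxd1. Among the 5753 named genes with 2 probes on the array the median gap was 0.77, with quartiles of 0.39 and 1.41, so that these 4 genes lay above the upper quartile. Opposite signs of the 2 probes were found in 46.0% of gene and array combinations. On replicate 1 the brightest Myc probe lay 0.80 and 0.60 below the other Myc probes. The Myc probes are 99 to 591 bases apart, the pairs of the other 4 genes 536 to 3561. The Pim1 pair includes the probe placed on the opposite strand, and the Mycn pair a dim probe. The part of probe placement and dimness in these gaps was not tested.

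Of the Myc relatives, Mycn, best known from neural and embryonic tissue, was uneven in WT. At its brighter probe the WT levels were 7.26, 7.25 and 11.05 and the p85α-/- levels 7.70, 9.18 and 7.79. The WT culture of replicate 3 stood more than 3 log2 units above the other WT cultures, and its ratio of −3.26 outweighed 0.44 and 1.93 on the others. The mean was −0.30 ± 2.67 (adjusted p = 0.980 by limma) and turned to 1.18 without replicate 3. Its other probe, lower in p85α-/- on all 3 arrays, had −0.18, −0.05 and −0.74, where 13.3% of all probes were lower on every array. That probe was well above background in only 2 WT channels and 1 p85α-/- channel, so these ratios come from dim spots. Mycl, the member first described in lung tumours, had 7.80, 8.20 and 7.59 in WT and 8.01, 7.26 and 7.98 in p85α-/-, with the groups overlapping. Its mean ratio was −0.12 ± 0.72 (adjusted p = 0.974).

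Max, the obligate partner of Myc and of Mxd1, also differed in direction between the arrays. Its levels were 8.11, 9.10 and 7.77 in WT and 9.38, 7.48 and 9.05 in p85α-/-. It was higher in p85α-/- on replicates 1 and 3, by 1.27 and 1.28, and lower on replicate 2, by −1.62. The mean was 0.31 ± 1.67 (adjusted p = 0.962 by limma). Without replicate 2 the mean was 1.28 with an unadjusted p of 0.0244 and an adjusted p of 0.592, but it turned to −0.17 without replicate 1 and to −0.18 without replicate 3. Mxd1, the repressor that competes for Max, had 9.03, 9.08 and 9.47 in WT and 9.26, 9.07 and 8.65 in p85α-/- at its brightest probe. These levels overlapped, and the mean ratio was −0.20 ± 0.55 (adjusted p = 0.939). The other Mxd1 probe, named after the clone AK137548 and 3561 bases further along the gene on the same strand, had 7.26, 7.44 and 7.03 in WT and 7.00, 9.44 and 10.89 in p85α-/-. Here the p85α-/- cultures of replicates 2 and 3 lay above all WT cultures and that of replicate 1 did not. Its mean of 1.87 ± 2.07 was the highest of the 14 probes (adjusted p = 0.908 by limma), and it was 2.93 without replicate 1 (unadjusted p = 0.0221 by limma), 1.80 without replicate 2 and 0.87 without replicate 3.

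By gene, at the brightest probes, the median log2 ratio of the family was 0.33, 0.40 and 0.17 on replicates 1 to 3, and 6, 4 and 5 of the 8 genes were above 0. Over all 14 probes, 3 of which are of Myc, the medians were −0.01, 0.89 and −0.44. The median of all probes was within 0.02 of 0 on each array. On the array of replicate 2 the p85α-/- channel was also the brightest of the 6. Markers of other cells moved differently between arrays: the summed level of 7 neutrophil markers (Mpo, Elane, S100a8 and others) was 9916, 18737 and 8021 in WT and 69574, 2858 and 227830 in p85α-/-, so it was higher in p85α-/- on replicates 1 and 3 and lower on replicate 2. On replicate 2 the markers were not of 1 sign: Mpo had −3.37, Elane −1.77 and Ngp −0.28, while S100a8, S100a9, Camp and Ltf had 0.17 to 0.49. Over the arrays the median of the neutrophil markers was 1.64, with 5 means above 0 and 2 below (Ltf −0.55 and Ngp −0.11). S100a8 and S100a9 passed 1.5-fold and an unadjusted p of 0.05 by limma, against 2.78% of all probes in the higher direction. Neither passed without replicate 1 or replicate 3, without the replicate block or by the methods' test, unpaired or paired. All 7 were well above background in every channel but WT of replicate 2, where S100a8 was not. The 6 macrophage markers were well above background in every channel, with a summed level of 3178 to 7691 in WT and 3419 to 3722 in p85α-/-. Of the 5 basophil and eosinophil markers 4 or 5 were, with 2918 to 10036 in WT and 5792 to 8684 in p85α-/-. Of the 10 mast cell markers 9 had a mean above 0, with a median of 1.53. Of these, 3 (Kit, Fcer1g and Cma1) passed 1.5-fold and an unadjusted p of 0.05 by limma, against the same 2.78% of all probes. Cma1 did not pass without replicate 1 or replicate 2, and neither Fcer1g nor Cma1 passed by the methods' test, unpaired or paired. The part of these markers and of the channel brightness in the values of the family was not tested. In sorted cells measured in bulk, fewer cells of a type and less RNA per cell cannot be told apart.

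The probes most like Pim3 over the 6 channels, each centred on its own mean, were those of 1200003I07Rik (Euclidean distance 0.11), Olfr1448 (0.13) and 2900055J20Rik (0.19). For the brightest Myc probe they were those of Stag2 (0.18), Kcnk3 (0.23) and D230040A04Rik (0.23). The median distance over probes well above background in all channels was 1.65 from Pim3 and 1.58 from Myc. The named probes were picked as the nearest among the 25559 of that kind, which favours short distances. Shared regulation was not tested.

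Genes around the family were examined in lists, each gene by its brightest probe. None of their probes had an adjusted p under 0.05 by limma, and the lowest was 0.763, so the criterion used for their counts is 1.5-fold with an unadjusted p under 0.05, met by 2.78% of all probes in the higher and by 1.66% in the lower direction. The median of all probes was −0.05.

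Partners and rivals of Max and its relative Mlx gave no call. Of 8 such genes 0 met the criterion, 3 had a mean above 0 and 5 below, and their median was −0.15, which turned to 0.53 with median centring. The lowest mean was that of Mxi1, a Max-binding repressor, at −1.07 ± 1.40 with −2.65 on replicate 3, while its other probe had 0.19, and it was named after its values were seen. Mlx, which pairs with the Mondo proteins, had 0.56 ± 0.40, but its other probe had −0.05. Mlxipl, the glucose-responsive factor ChREBP, had −0.58 ± 0.25 and −1.04 at its other probe. Mxd3, a repressor related to Mxd1, had −0.25 ± 0.17, and 0.01 at its other probe.

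Among 15 genes of Myc turnover and Myc cofactors, 1 met the criterion. Fbxw7, the ubiquitin ligase subunit that marks Myc for destruction, was higher in p85α-/- by 3.53, 2.90 and 1.97 on the arrays, a mean of 2.80 ± 0.78 (unadjusted p = 0.0029, adjusted p = 0.763 by limma). It met the criterion under all 14 alternatives run, although its second probe had 0.59 ± 0.59. Kat5, the acetyltransferase TIP60, had 1.18 ± 1.80, carried by 3.26 on replicate 1. Ruvbl1, an ATPase of chromatin complexes that Myc recruits, had −1.25 ± 1.57, and −0.11 ± 1.32 at its other probe. In all 11 of the 15 had a mean above 0, and the list's median was 0.48 (0.14 without replicate 1, 0.13 without replicate 2, 0.97 with median centring).

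Of 14 measured Pim substrates and Pim chaperones 0 met the criterion, 5 had a mean above 0 and 9 below, and their median was −0.33, which was −0.14 without replicate 1, −0.12 without replicate 2, 0.36 with median centring and 0.0018 with the mean over all probes of each gene. Cdkn1a, the cell cycle inhibitor p21 that Pim kinases phosphorylate, had 0.80, 2.58 and 0.04. Map3k5, the stress kinase ASK1, had 1.09 ± 0.98. Nfatc1, a transcription factor of activated lymphocytes, had a mean of −0.07 and was between −0.08 and −0.07 on every array, and its other probe had 0.71 ± 0.87.

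Of 27 measured genes that Myc is known to induce, 5 met the criterion in the higher direction and 1 in the lower, and the list's median was 0.60 (0.39 without replicate 2, 1.31 with median centring). Ccnd2, the D-type cyclin 2, had 2.13, 4.65 and 2.07, a mean of 2.95 ± 1.47 (adjusted p = 0.908 by limma). Its other probes had means of 0.53 and 1.26, and over all its probes the mean was 1.58 and did not meet the criterion. Hspd1, the mitochondrial chaperonin HSP60, had 2.70 ± 1.49. The nucleolar genes Npm1 (2.12 ± 0.70) and Nop56 (2.07 ± 0.54) and the cell cycle factor E2f1 (1.12 ± 0.67) also met it, and Tfam, which packages mitochondrial DNA, was lower (−0.98 ± 0.18). These 4 were named after their values were seen. Nop56 met the criterion under all 14 alternatives, Npm1 and Hspd1 under 13, Ccnd2 under 10, Tfam under 8 (not without replicate 1 or replicate 3, and with median centring its mean turned to 0.39) and E2f1 under 4 (not without replicate 2 or replicate 3). Odc1, the rate-limiting enzyme of polyamine synthesis and a classical Myc target, had −1.59, −0.07 and −2.96 at its brightest probe, but 0.50 and 0.52 as means at its other probes. Cdk4, the kinase partner of D-type cyclins, had −1.40 ± 1.16. The list had members on both sides of 0, and Myc itself had a mean of −0.17.

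Of 6 genes that Myc is known to repress, 1 met the criterion, in the higher direction, and 5 had a mean above 0, with a median of 1.01 that was 1.77 without replicate 1, 0.64 without replicate 2, 0.53 without replicate 3 and 1.71 with median centring. That gene was Gadd45a, a DNA damage response gene, with 1.52, 1.33 and 3.11 (mean 1.99 ± 0.98, adjusted p = 0.908 by limma), and it met the criterion under 11 of the 14 alternatives. Of 9 other STAT5 target genes 1 met it, Ccnd2 again, 8 had a mean above 0 and the median was 0.97 (1.76 without replicate 2, 1.96 with median centring). Socs2, a feedback inhibitor of cytokine receptors, had 0.33, 1.65 and 5.60, whereas its other probe had a mean of −0.03. As in the Pim genes, a high mean at 1 probe of a STAT5 target was not always shared by the next.

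**Figure D4:**
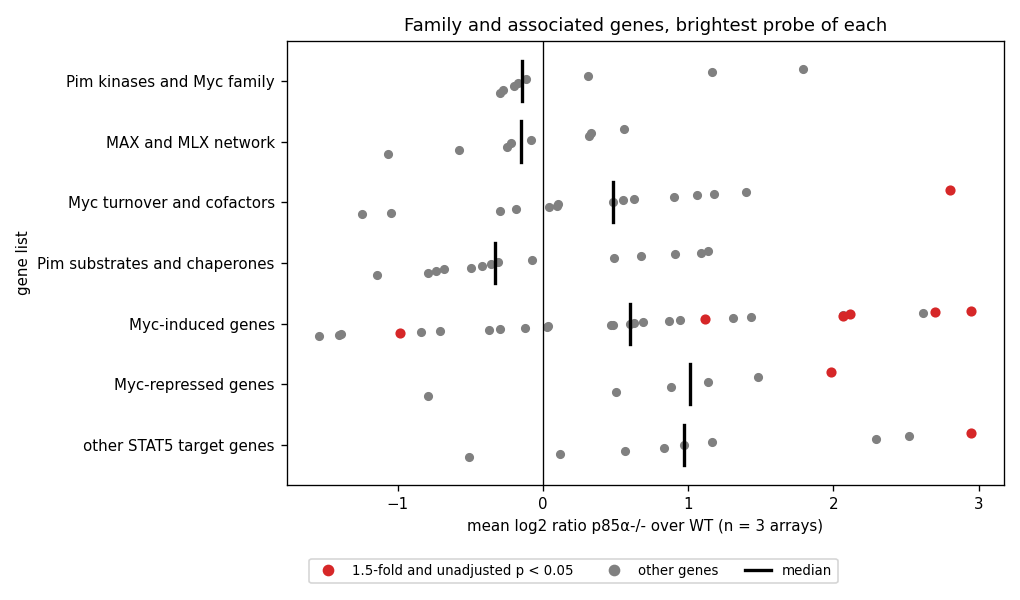
Mean log2 ratio of p85α-/- over WT (x axis, n = 3 arrays) of the brightest probe of each gene in each list (y axis), with red points for genes past 1.5-fold and an unadjusted p of 0.05, grey points for the others and a black bar for the median. Medians run from −0.33 for Pim substrates and chaperones to 1.01 for genes repressed by Myc, and none of the 8 family genes is red.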

How the data were processed

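Amplified cDNA of MCps from 3 WT and 3 p85α-/- mice was measured on 3 two-colour Agilent arrays on 1 slide with a single scan day. Scanner files, which the authors deposited, were made with Agilent Feature Extraction (9.5.1.1 in the file headers) and hold the mean intensity of each spot and its median local background, not normalized, and a log10 ratio of red over green. They also deposited a table of log10 ratios, which was compared with the scanner files and otherwise not used.

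Intensities were background-corrected by normexp with an offset of 50 and quantile normalized over the 6 channels on the log2 scale, as the methods state for the chips, in R 4.3.3 with limma 3.58.1. No spot was saturated (0). Control and outlier spots were left out (183 to 209 outlier spots per array), repeated spots were averaged per probe, and each probe's log2 ratio was tested against 0 with eBayes and Benjamini-Hochberg adjustment over 41157 probes. Each array pairs the 2 cultures hybridized to it, so this fit keeps the pairing. The steps were tested on simulated data. The brightest probe is that with the highest mean level over the channels. Intervals are 95%.

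The members and gene lists were chosen with earlier results of these data known. All members were named, and from each list the 2 highest and 2 lowest genes of 1 sign on all arrays with 1 bright channel or more on each array (well above background by the software's flag). The accessions of 12 of the 14 probes matched RefSeq genes of GRCm38.p6, which supplied the promoter sequences of all members but Myc. Alternatives were other backgrounds and normalizations, the software's processed signals and log ratio, dim probes left out, outlier spots kept, no replicate block, the methods' t-test, the mean over probes and each replicate left out. Only 3 arrays limit the precision.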

Additional observations from a re-analysis of the deposited data

How the results depend on the processing

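No setting gave a probe of the family an adjusted p under 0.05. The number of probes past 1.5-fold and an unadjusted p of 0.05 was 1829, 1125 with the methods' t-test unpaired, 819 paired and 1557 to 3165 with 1 replicate left out (3165 without replicate 2). Median centring moved the most values: Pim1 (1.92), Pim2 (2.48) and Myc (0.92) passed both criteria, Myc, Pim3 (0.050), Mycl (0.12) and Mxd1 (0.40) turned positive, 1 member gene instead of 5 was below 0 and 3 instead of 0 passed, and the list medians became 0.53 (MAX and MLX network), 0.97 (Myc turnover), 0.36 (Pim substrates), 1.31 (Myc-induced), 1.71 (Myc-repressed) and 1.96 (STAT5 targets). The cause was not tested. With loess within arrays and quantile normalization of average intensities between them, Pim1 passed (1.16), which made 1 member gene. With the software's processed signals or log ratio Mycn was 0.037, and with the mean over probes Mxd1 was 0.83, Pim1 0.70 and Pim2 0.81. With 1 replicate left out the means ran from 0.84 to 1.64 for Pim1, 0.78 to 2.31 for Pim2, −0.48 to −0.03 for Pim3, −0.69 to 0.10 for Myc, −1.41 to 1.18 for Mycn, −0.37 to 0.30 for Mycl, −0.18 to 1.28 for Max and −0.42 to 0.11 for Mxd1, with 3 to 5 member genes below 0 and 0 to 1 past both criteria, and the median of Myc turnover genes from 0.13 to 0.46. On the strand of the gene, an alternative added after the data were seen, Pim1 was 0.24. Without the replicate block by array, 1809 probes passed and no call in the family changed. Of 110 values of single member genes under alternatives, 91 kept direction and call, 14 changed sign and 5 newly passed both criteria with the sign kept; Myc with median centring, among the 14, also passed. The authors' table was not run for ratios, since 190 (replicate 2) and 226 (replicate 3) of 40929 entries equal the scanner's ratio of their own probe.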
